A study of Mus musculus with 12 samples.

Results

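Cytotoxic lymphocytes kill by releasing granules that hold granzymes and perforin, and 9 genes of that system were followed in activated CD4 T cells. They are the granzymes Gzma, Gzmb and Gzmc, the pore-forming protein Prf1, the granule proteoglycan Srgn, the granule membrane protein Nkg7, the granzyme B inhibitor Serpinb9, and the T-box transcription factors Eomes and Tbx21 (T-bet). They were taken by symbol out of 49585 genes in the count files, and were chosen by their level in Rnmt cKO against control in these same total RNA and RPF libraries. Their differences between genotypes are therefore given as a description, with a standard error (SE) and no test.

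The study deleted Rnmt, the methyltransferase that adds the N-7 methyl group to the guanosine cap of mRNA, and compared Rnmt fl/fl CD4cre + (Rnmt cKO) with Rnmt fl/fl CD4cre - (control) female mice. All 12 libraries came from lymph node CD4 T cells isolated with a magnetic kit for naive cells, then cultured for 20 h on plates coated with anti-CD3 (5 ug/ml) and anti-CD28 (1 ug/ml), and given 0.1 mg/ml cycloheximide for 1 min before lysis. Total cytoplasmic RNA and ribosome protected fragments (RPFs) were each sequenced in 3 control and 3 Rnmt cKO samples. CD4cre acts while thymocytes carry both CD4 and CD8, so CD8 T cells and other descendants of that stage also lack the floxed sequence, whereas cells outside the lineage keep it. The labels number the samples of a group but name no animal, and p-values measure only the spread between these samples. The control libraries of total RNA held 18915961 to 19111659 reads in genes and the cKO libraries 15079703 to 22629563. The RPF libraries held 6786164 to 10661356 in control and 4123271 to 10166729 in cKO, with the fewest in cKO replicate 3.

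Granzymes are serine proteases that enter a target cell through pores made by perforin and cut proteins there, granzyme B being the classic inducer of apoptosis. Serglycin, the product of Srgn, packs the granule contents, Nkg7 takes part in granule release, and Serpinb9 protects the killer cell from its own granzyme B. T-bet and Eomes bind T-box elements near genes such as Ifng, Prf1 and Gzmb, together with Runx factors. Killing is best known from CD8 T cells and natural killer (NK) cells, but CD4 T cells can take up the same programme, and T-bet is also the defining factor of type 1 helper cells.

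In GRCm38, Gzmb lay at chr14:56258838-56262260 and Gzmc at chr14:56231441-56234656, both on the minus strand of the granzyme cluster, with Gzma apart at chr13:113093825-113100981 (minus). Prf1 lay at chr10:61297833-61304680 (plus), Srgn at chr10:62493833-62527451 (minus), Nkg7 at chr7:43437073-43438249 (plus) and Serpinb9 at chr13:33003250-33017957 (plus). Eomes lay at chr9:118478212-118486132 (plus) and Tbx21 at chr11:97098071-97115331 (minus). All are protein-coding genes. In Gzmc 84.7% of all 30-base windows of its transcripts occurred in no other gene and in Serpinb9 94.5%, and they shared 74 windows with Gzme and 144 with Serpinb9b. Reads that match more than 1 place were kept out of the gene counts, so reads of such windows may be missing from the counts of both genes. The share of unshared windows was at least 97.4% in the other members.

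The promoters of the 9 genes were searched for letters that T-box and Runx factors are known to bind, since most of these genes were higher in the same samples. RefSeq sequences of 300 bases around the annotated start were found for all 9, with a pair of starts for Srgn. The T-box core TCACACC, on either strand, occurred only in Nkg7, in 1 of 9 genes, against 3.98% of the 32851 promoter windows of the genome. The Runx core TGTGGT, on either strand, occurred in 7 of 9 genes (Nkg7, Prf1, Srgn at its internal start, Serpinb9, Gzma, Gzmc and Gzmb) against 16.8% of the windows. The members are counted here as genes, 9 with 10 windows, whereas the shares over the genome count windows. The Serpinb9 window, chr13:33004291-33004590, also lies inside the gene as placed above. The letters of the cores do not overlap each other in these windows, and a match is a description of letters, not evidence of binding. The windows of the granzymes with the highest and the most uneven level, of perforin and of Nkg7, which holds the T-box core, are shown here on the strand of the gene (GRCm38.p6), with either core in capitals. They are Gzmb at chr14:56262285-56262584 (minus strand), Gzma at chr13:113100932-113101231 (minus strand), Prf1 at chr10:61297586-61297885 (plus strand) and Nkg7 at chr7:43436888-43437187 (plus strand).
Gzmb: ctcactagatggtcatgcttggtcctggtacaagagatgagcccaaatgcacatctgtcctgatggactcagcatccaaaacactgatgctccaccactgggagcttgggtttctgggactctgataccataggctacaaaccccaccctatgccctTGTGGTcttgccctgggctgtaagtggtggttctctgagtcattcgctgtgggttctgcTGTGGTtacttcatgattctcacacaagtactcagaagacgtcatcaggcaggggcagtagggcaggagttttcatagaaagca
Gzma: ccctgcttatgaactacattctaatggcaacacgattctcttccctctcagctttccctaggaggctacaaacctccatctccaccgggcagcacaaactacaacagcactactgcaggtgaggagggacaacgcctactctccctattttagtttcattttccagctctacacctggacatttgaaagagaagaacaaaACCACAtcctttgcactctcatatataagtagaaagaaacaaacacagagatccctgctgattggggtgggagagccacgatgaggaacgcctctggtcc
Prf1: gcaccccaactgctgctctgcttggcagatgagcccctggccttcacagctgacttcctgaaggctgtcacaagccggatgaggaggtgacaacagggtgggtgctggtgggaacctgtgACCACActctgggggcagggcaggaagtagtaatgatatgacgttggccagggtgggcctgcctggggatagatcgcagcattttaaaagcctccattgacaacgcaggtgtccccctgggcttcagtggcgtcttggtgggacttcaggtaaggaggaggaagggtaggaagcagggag
Nkg7: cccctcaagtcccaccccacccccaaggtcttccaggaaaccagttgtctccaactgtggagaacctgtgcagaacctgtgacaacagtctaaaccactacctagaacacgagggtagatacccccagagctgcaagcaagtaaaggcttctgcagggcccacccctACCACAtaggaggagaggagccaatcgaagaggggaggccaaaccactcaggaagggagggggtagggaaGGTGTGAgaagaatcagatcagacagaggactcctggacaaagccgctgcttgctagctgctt
Counted from the start site, the Runx cores of Gzmb began at bases -93 and -34, that of Gzma at -50, that of Prf1 at -130 and that of Nkg7 at -83. The T-box core of Nkg7 began at -13.

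Rnmt itself showed the genotype in every library. In total RNA it measured 94.6 ± 0.753 CPM (read counts scaled to the effective library size, SD, n = 3) in control and 30.7 ± 1.56 CPM in cKO, a log2 fold change of -1.62 (SE 0.06, edgeR quasi-likelihood test, adjusted p = 5.838e-06). In RPFs it measured 97.0 ± 8.27 CPM in control and 10.2 ± 0.496 CPM in cKO, a log2 fold change of -3.24 (SE 0.10, edgeR, adjusted p = 4.814e-06). All CPM values are relative to the sequenced RNA of a library, so they do not give molecules per cell.

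Most of the 9 genes were higher in Rnmt cKO than in control, by very different amounts. Eomes and Serpinb9 differed most among the well counted members, with log2 fold changes in total RNA of 3.13 (SE 0.26) and 3.10 (SE 0.36), then Gzmb with 2.18 (SE 0.19), Tbx21 with 1.82 (SE 0.56) and Nkg7 with 1.43 (SE 0.22). Prf1 differed by 0.77 (SE 0.32) and Srgn by 0.33 (SE 0.07). Gzma and Gzmc did not pass the filter on low counts in total RNA (CPM above 1 in at least 3 libraries). The other 7 passed it, and all 9 did in RPFs, Gzma only through its cKO libraries. As background, 26.3% of all 11519 genes tested were higher and 28% lower in total RNA at an adjusted p under 0.05, and 14.1% of 11428 genes were higher and 15.7% lower in RPFs. The median log2 fold change was 1.82 over the 7 members in total RNA and 1.83 over the 9 in RPFs, whereas over all genes tested it was -0.0037 and 0.008. In both kinds of library, no cKO value fell within the control range for any member except Gzmc, and all cKO libraries lay above all control libraries in 30% of all genes in total RNA and 22.2% in RPFs. The members were chosen by this contrast, so their medians and lack of overlap follow in part from that choice and test nothing.

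**Figure D1:**
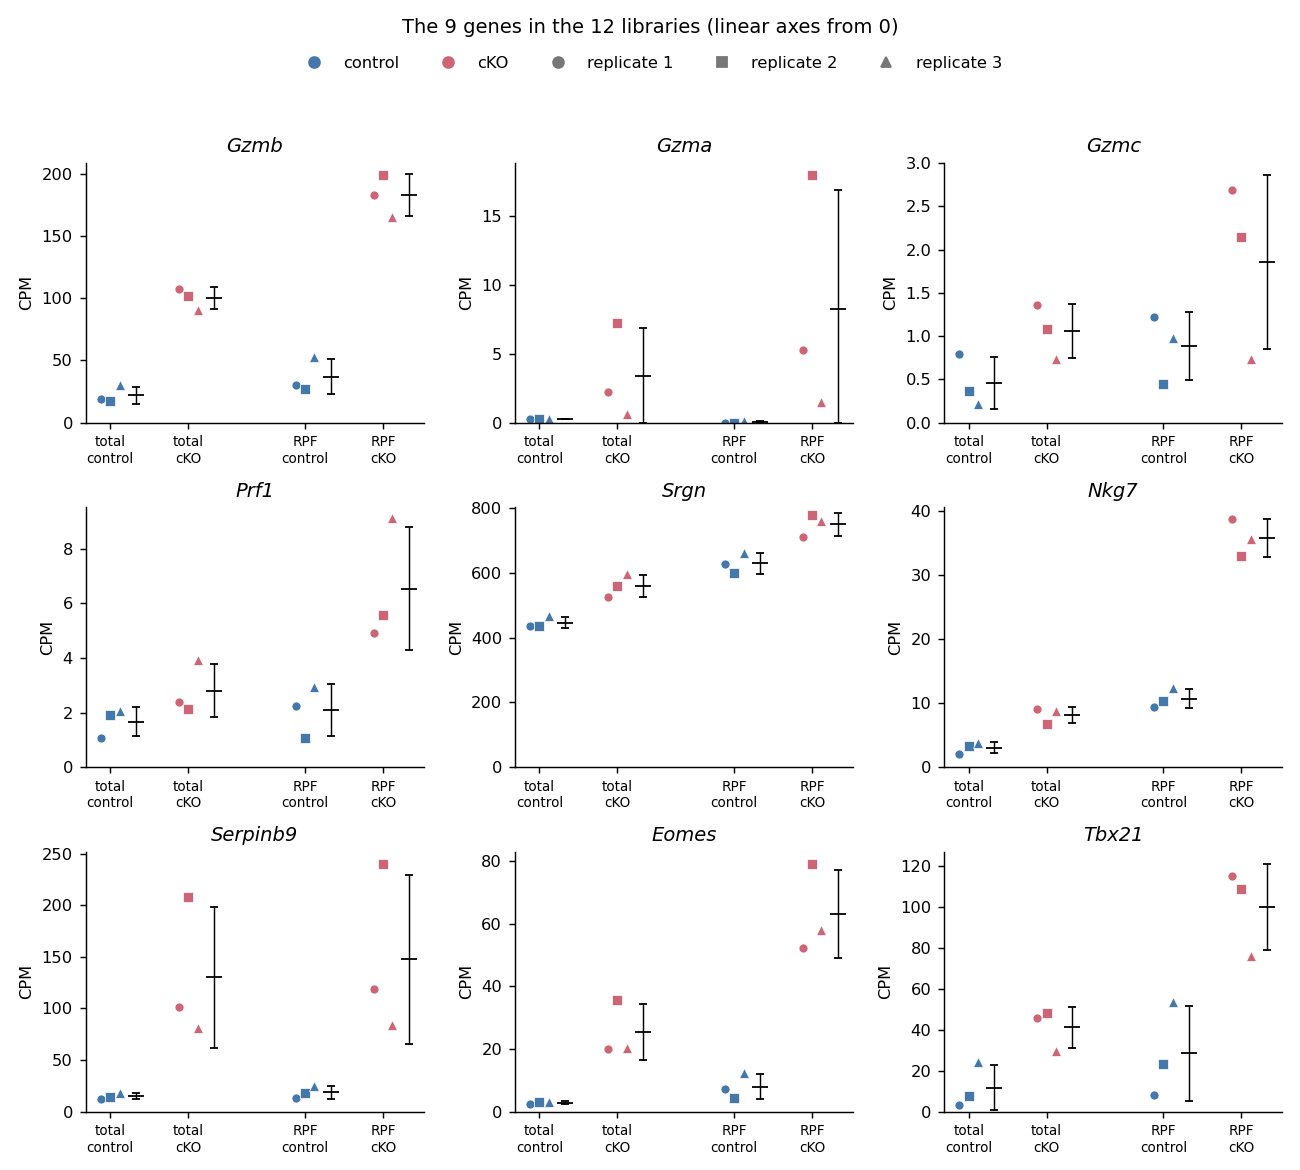
CPM (linear axes from 0) of the 9 genes in each library, by kind of RNA and genotype. Symbols are the 3 replicates of a group, and the black bar and whiskers are their mean and SD, with whiskers stopped at 0; the groups overlap only in Gzmc.

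Gzmb, the granzyme with the most reads, was steady between cKO samples. In total RNA it measured 18.7, 17.3 and 29.9 CPM in control replicates 1, 2 and 3, and 107.66, 101.64 and 90.4 CPM in cKO. In RPFs it measured 30.2, 27.3 and 53.0 CPM in control and 183.03, 199.3 and 165.61 CPM in cKO. Control replicate 3 was the highest control in both kinds of library and still lay below every cKO sample. The log2 fold change in RPFs was 2.31 (SE 0.22), close to that in total RNA. Gzmb made up 90.8% to 98.7% of the reads of the 3 granzymes in every one of the 12 libraries.

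Gzma, a granzyme with trypsin-like specificity, was almost unread in control. It held 5 counts in each of the 3 control libraries of total RNA, and 33, 141 and 14 counts in cKO replicates 1, 2 and 3. The ratio of summed counts, scaled to library size, was 12.3 (95% exact conditional binomial interval 7.28 to 22.5, counting error only). In RPFs the controls held 0, 0 and 1 counts and the cKO samples 45, 184 and 6, a ratio of 262 (interval 46.5 to 10377). The cKO samples differed widely among themselves, with replicate 2 highest and replicate 3 lowest in both kinds of library, and a single control read sets the size of the RPF ratio.

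Gzmc, a granzyme of strongly activated killer cells, was low in every library and its genotypes overlapped. Total RNA held 15, 7 and 4 counts in control and 20, 21 and 17 in cKO, and RPFs held 13, 3 and 8 in control and 23, 22 and 3 in cKO. The ratios of summed counts were 2.19 (interval 1.36 to 3.63) and 2.23 (interval 1.34 to 3.80), with the counting error only. In CPM, cKO replicate 3 lay below control replicate 1 in both kinds of library.

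Prf1 was low in total RNA, at 1.06, 1.91 and 2.05 CPM in control and 2.38, 2.12 and 3.93 CPM in cKO. The highest control and the lowest cKO sample nearly met, and the log2 fold change of 0.77 ranged from 0.43 to 0.97 when a library was left out. In RPFs it measured 2.25, 1.06 and 2.94 CPM in control and 4.92, 5.57 and 9.10 CPM in cKO, a log2 fold change of 1.58 (SE 0.40). Replicate 3 was the highest of its genotype in both kinds, which was not so for Gzmb, Gzma or Serpinb9 in cKO.

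Srgn was by far the most abundant member and changed least. Total RNA held 434.65, 436.66 and 465.17 CPM in control and 526.76, 559.01 and 594.9 CPM in cKO. RPFs held 626.43, 599.48 and 662.45 CPM in control and 711.04, 778.07 and 759.15 CPM in cKO, a log2 fold change of 0.25 (SE 0.07). The small difference was larger than the spread between samples in both kinds. Serglycin is also made by cells without killing function, and its control level was already high.

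Nkg7 measured 2.07, 3.28 and 3.77 CPM in control and 9.10, 6.81 and 8.73 CPM in cKO in total RNA. In RPFs it measured 9.39, 10.4 and 12.4 CPM in control and 38.7, 32.9 and 35.7 CPM in cKO, a log2 fold change of 1.74 (SE 0.13). The cKO samples lay close together, and Nkg7 had the smallest SE of the members with a log2 fold change above 1 in RPFs.

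Serpinb9 was higher in the same samples as its target granzyme but was uneven between cKO samples. Total RNA held 12.7, 14.0 and 18.6 CPM in control and 101.35, 207.92 and 80.7 CPM in cKO. RPFs held 13.1, 17.9 and 25.4 CPM in control and 118.43, 240.12 and 83.9 CPM in cKO, a log2 fold change of 2.997 (SE 0.40). The cKO samples stood in the same order in both kinds of library, with replicate 2 highest and replicate 3 lowest, the order that Gzma also had.

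Of the T-box factors, Eomes showed the larger and the cleaner difference. Total RNA held 2.44, 3.02 and 3.23 CPM in control and 20.2, 35.7 and 20.5 CPM in cKO. RPFs held 7.14, 4.37 and 12.3 CPM in control and 52.3, 79.1 and 58.1 CPM in cKO, a log2 fold change of 2.98 (SE 0.31). The lowest cKO sample was several times the highest control in both kinds.

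Tbx21 was less even. Total RNA held 3.45, 7.46 and 24.1 CPM in control and 45.7, 48.2 and 29.5 CPM in cKO, and RPFs held 8.36, 23.5 and 53.7 CPM in control and 114.92, 108.59 and 76.0 CPM in cKO. Control replicate 3 was the highest control and cKO replicate 3 the lowest cKO sample, so the groups stood apart only narrowly. Without control replicate 3 the log2 fold change in total RNA was 2.91 in place of 1.82. Of the remaining 14 genes of the T-box family only Mga, a Max-binding factor, passed the filter, and its log2 fold change was -0.12 (SE 0.07, edgeR, adjusted p = 0.1522) in total RNA and -0.11 (SE 0.07, adjusted p = 0.249) in RPFs.

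Libraries differed in reads of marker genes of cells other than CD4 T cells, although kits for naive CD4 T cells work by depleting other cells, B, CD8 T and NK cells among them. In bulk RNA, fewer cells of a type and less RNA per cell cannot be told apart. The 6 B cell markers summed to 9.60, 6.30 and 34.4 CPM in control and 88.6, 106 and 20.0 CPM in cKO in total RNA, with Ms4a1 or Cd79b the most abundant. In RPFs they summed to 11.8, 8.89 and 42.4 CPM in control and 130, 142 and 22.1 CPM in cKO, and no marker of the list was at 0 except 1 in cKO replicate 3. In both kinds, control replicate 3 held more than the other controls and cKO replicate 3 less than it. T-bet is known from B cells as well, and Tbx21, like these markers, was highest in replicate 3 among the controls and lowest in replicate 3 among the cKO samples. Gzmb and Serpinb9 had the same pattern in both kinds of library, as did Gzma, whose control values rest on 5 counts or fewer. The part of B cells in the values of these members was not tested. The share of all genes with this order was not counted. Over 6674 genes, deviations of control and cKO replicate 3 from their group means ran opposite in total RNA (r -0.584). In RPFs r was -0.055.

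In the libraries of number 3, B cell markers were lower in cKO than in control, and these libraries were set side by side after seeing the data. There, cKO over control was 3.02 in total RNA and 3.13 in RPFs for Gzmb, 6.33 and 4.74 for Eomes, 4.34 and 3.31 for Serpinb9, and 2.31 and 2.88 for Nkg7. Prf1 gave 1.92 and 3.09, Srgn 1.28 and 1.15, and Tbx21 1.23 and 1.42. Gzma gave 2.24 and 12.04 and Gzmc 3.41 and 0.753, on few counts. Each is a ratio of 1 library to 1 library, without replicates and without a pairing of the animals, and says nothing of a cause.

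Of the markers of cells known for killing, the sums for CD8 T cells overlapped between genotypes and those for NK cells were higher in cKO. Cd8a and Cd8b1 summed to 21.4, 21.4 and 41.7 CPM in control and 26.4, 21.3 and 9.85 CPM in cKO in total RNA, with overlapping groups, and cKO replicate 3 was the lowest of all libraries. Their log2 fold changes in total RNA were -0.63 (SE 0.54, edgeR, adjusted p = 0.3501) for Cd8a and -0.52 (SE 0.26, adjusted p = 0.1177) for Cd8b1. In RPFs they were -0.62 (SE 0.45, adjusted p = 0.3295) and -0.27 (SE 0.26, adjusted p = 0.4766).

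The 14 NK markers summed to 5.09, 5.40 and 6.36 CPM in control and 8.55, 8.20 and 9.85 CPM in cKO in total RNA, and to 4.88, 7.39 and 10.1 CPM in control and 14.4, 14.0 and 12.1 CPM in cKO in RPFs. Every cKO library lay above every control in both kinds. Klrd1 was the most abundant in 10 of the 12 libraries, and its own groups overlapped, at 3.31 ± 0.637 CPM in control and 2.53 ± 0.822 CPM in cKO in total RNA. Its log2 fold changes were -0.36 (SE 0.25, edgeR, adjusted p = 0.2581) in total RNA and -0.21 (SE 0.49, adjusted p = 0.7691) in RPFs. The defining marker Ncr1 held 4 counts over the 3 controls and 28 over the 3 cKO samples in total RNA, and 2 and 22 in RPFs. Klrb1c held 1 and 20 counts in total RNA and 0 and 9 in RPFs. Both were near 0 in control and higher in cKO, whereas Itga2 held 11 and 14 counts in total RNA and 11 and 2 in RPFs. Of the 14 markers 2 were tested in total RNA, where 26.3% of all genes were higher, and Klrc1 rose by 1.21 (SE 0.39, edgeR, adjusted p = 0.02952). In RPFs, where 14.1% of all genes were higher, 3 were tested and only Fcer1g passed in edgeR, whereas DESeq2 called 0 rises. Fcer1g had 2 counts over the controls and 41 over the cKO samples and met the filter on low counts through cKO alone. The part of NK cells in the members' values was not tested.

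The 5 markers of gamma delta T or NKT cells were higher in every cKO library, mostly through Trdc, the constant region of the delta chain. They summed to 8.86, 8.79 and 7.33 CPM in control and 24.0, 21.2 and 24.7 CPM in cKO in total RNA, and to 13.6, 13.3 and 11.2 CPM in control and 31.7, 27.5 and 38.1 CPM in cKO in RPFs. Trdc rose by 1.49 on the log2 scale (SE 0.11, edgeR, adjusted p = 2.977e-05) in total RNA. Zbtb16, the defining factor of NKT cells, held 4 counts over the controls and 4 over the cKO samples in either kind, near 0. The part of gamma delta T cells was not tested.

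None of the 8 CD4 T cell markers was at 0 in any library. They summed to 4080, 3995 and 3812 CPM in control and 3006, 2952 and 3440 CPM in cKO in total RNA, and 5 of the 8 fell (edgeR, adjusted p under 0.05), where 28% of all genes were lower. Cd4 itself measured 330 ± 18.0 CPM in control and 295 ± 22.4 in cKO, a log2 fold change of -0.16 (SE 0.08, adjusted p = 0.1016). The 4 regulatory T cell markers summed to 19.6, 21.8 and 21.6 CPM in control and 39.6, 42.7 and 38.4 CPM in cKO, and 3 of 3 tested rose in total RNA, where 26.3% of all genes were higher, and 2 of 4 in RPFs, where 14.1% were. Foxp3, their defining factor, measured 0.799 ± 0.101 CPM in control and 0.544 ± 0.293 CPM in cKO in total RNA. Cd44, an adhesion receptor of activated cells, rose in total RNA from 26.1 ± 3.54 to 119 ± 77.1 CPM (log2 fold change 2.19, SE 0.40, adjusted p = 0.002499). Its cKO libraries ranged from 66.7 to 208 CPM with a median of 83.8, so the highest carried much of the mean. In both kinds Cd44, like the B cell markers, was highest in replicate 3 among the controls and lowest in replicate 3 among the cKO samples. The part of B cells in it was not tested. The 9 myeloid and mast cell markers, the lowest of the lists, summed to 0.212, 0.741 and 0.593 CPM in control and 1.83, 1.70 and 1.43 CPM in cKO in total RNA, with every cKO library above every control, and the groups overlapped in RPFs. Kit was the most abundant in every library of total RNA.

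**Figure D2:**
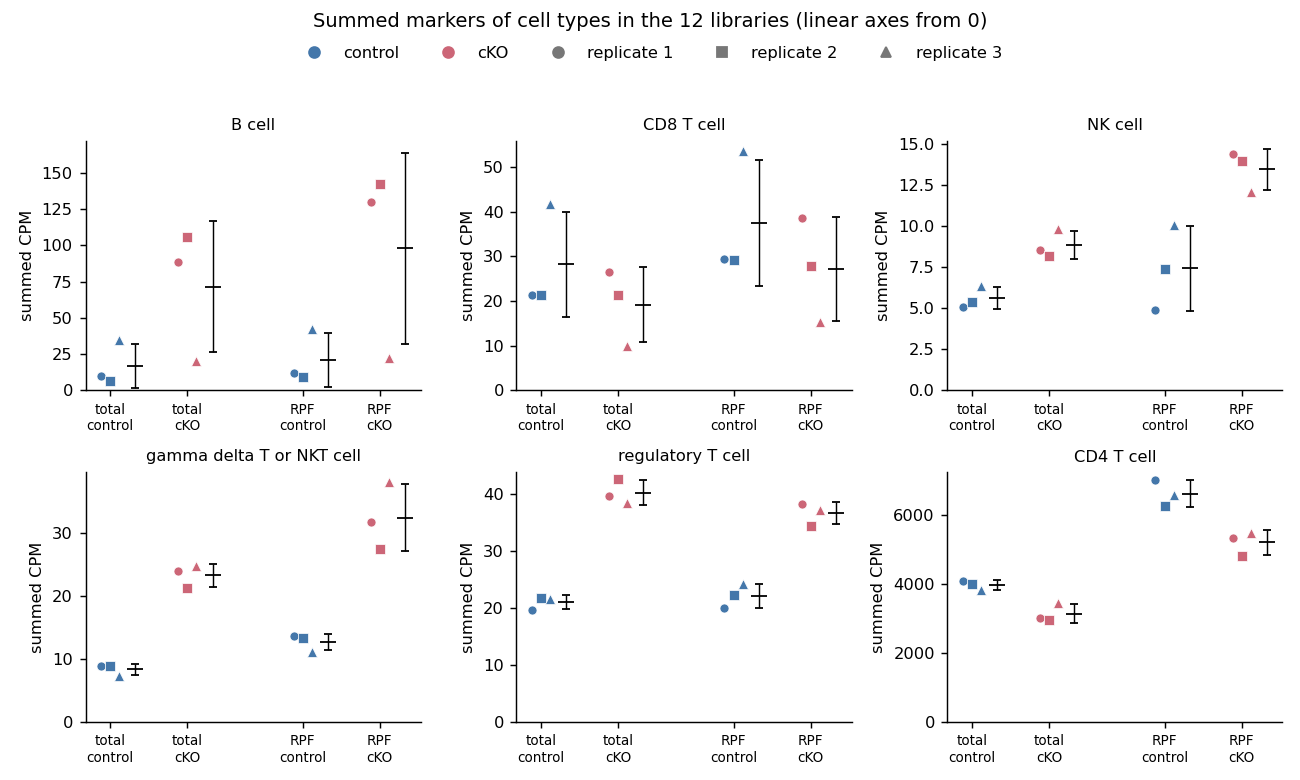
Summed CPM (linear axes from 0) of 6 lists of cell type markers in each library, by kind of RNA and genotype. Symbols are replicates, and the black bar and whiskers are mean and SD, with whiskers stopped at 0; B cell and CD8 T cell markers overlap between genotypes, whereas those of NK, gamma delta or NKT, regulatory and CD4 T cells do not.

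Per kilobase, Srgn stood far above the other 8 genes in both genotypes. In total RNA, Srgn measured 254 ± 9.74 RPKM in control and Gzmb 15.3 ± 4.82 RPKM, followed by Tbx21 with 4.69 ± 4.40, Serpinb9 with 4.33 ± 0.882 and Nkg7 with 3.45 ± 0.996 RPKM. Eomes (0.785 ± 0.111 RPKM), Prf1 (0.647 ± 0.207), Gzmc (0.515 ± 0.336) and Gzma (0.265 ± 0.00262) stood at the bottom. In that order only Srgn and Gzmb, Gzmb and Tbx21, and Nkg7 and Eomes were neighbours whose values did not overlap. In cKO the order was Srgn (320 ± 19.4 RPKM), Gzmb (69.6 ± 6.09), Serpinb9 (37.2 ± 19.5), Tbx21 (16.5 ± 4.07), Nkg7 (9.32 ± 1.39), Eomes (6.89 ± 2.41), Gzma (3.35 ± 3.46), Gzmc (1.18 ± 0.349) and Prf1 (1.09 ± 0.380). There the first 5 stood apart from each other, and the remaining neighbours overlapped.

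Footprints per kilobase of coding sequence gave a similar picture in RPFs. Srgn measured 1380 ± 69.3 RPKM in control and 1644 ± 75.8 in cKO, and Gzmb 49.7 ± 19.0 and 246 ± 22.7. Next to Gzmb, control held Nkg7 with 21.7 ± 3.07 RPKM, with values that overlapped those of Tbx21 (17.9 ± 14.5). In cKO Serpinb9 stood next with 131 ± 73.1 RPKM, overlapping Nkg7 with 72.3 ± 5.89. Prf1 measured 1.25 ± 0.575 RPKM in control and 3.93 ± 1.36 in cKO, so that perforin footprints were scarce beside those of granzyme B in both genotypes.

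**Figure D3:**
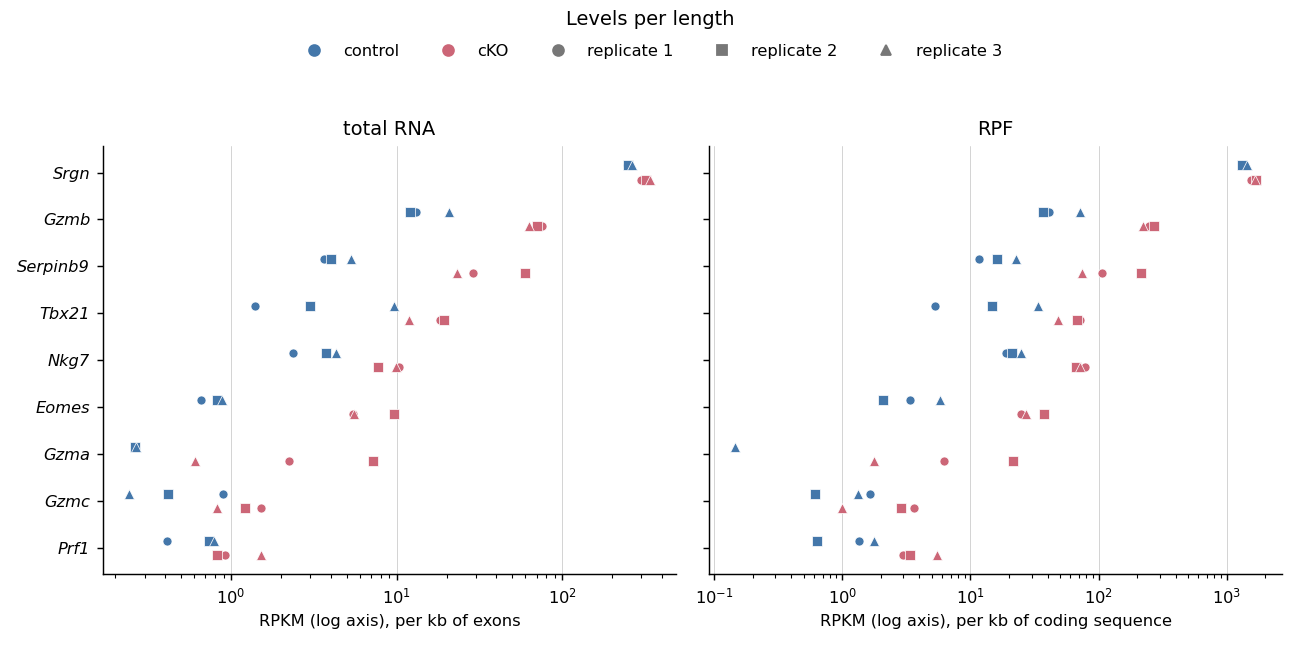
RPKM (log axes) of the 9 genes in control and Rnmt cKO libraries, per kilobase of exons in total RNA and of coding sequence in RPFs. Each symbol is 1 library, and the 2 control RPF libraries without a Gzma read are not drawn; Srgn stands far to the right, and cKO lies to the right of control in every gene except Gzmc, where they overlap.

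Translation efficiency (TE) in control cells, RPF RPKM over total RNA RPKM of the same replicate number, could be had for 7 members and does not use the contrast that chose them. Nkg7 had a TE of 6.52 ± 1.35 (SD, n = 3), at percentile 89.9 of 9985 genes whose median was 2.51. Srgn followed with 5.43 ± 0.137 (percentile 85.4), Eomes with 4.74 ± 2.06 (81.5), Tbx21 with 4.07 ± 0.760 (75.5), Serpinb9 with 3.81 ± 0.549 (72.8) and Gzmb with 3.21 ± 0.196 (64.0). Prf1, with few reads, had 2.13 ± 1.22 (percentile 40.0). Leaving out a replicate moved the percentile of Prf1 between 24.0 and 55.4. Without division by length the percentiles were 63.4 for Srgn, 53.9 for Serpinb9 and 61.4 for Prf1, so that all 7 lay above the median gene in place of 6, in another order. In the order per length only Nkg7 and Srgn were neighbours whose values did not overlap.

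Between genotypes, the TE change of the members ranged from -0.15 to 0.78 on the log2 scale and is given without a test. This change, the difference of the log2 fold changes fitted as an interaction over 12 libraries, was 0.13 (SE 0.32) for Gzmb, -0.15 (SE 0.44) for Eomes, 0.02 (SE 0.86) for Tbx21 and -0.09 (SE 0.60) for Serpinb9. It was 0.31 (SE 0.27) for Nkg7, -0.08 (SE 0.10) for Srgn and 0.78 (SE 0.53) for Prf1, whose value ranged from 0.40 to 1.07 when a library was left out. With the sample number as a block, which pairs the total RNA and RPFs of a sample, the values were close to these and the SEs smaller, for example 0.14 (SE 0.10) for Gzmb, -0.05 (SE 0.14) for Tbx21 and -0.12 (SE 0.12) for Serpinb9. Over all 10668 genes tested, 3.24% were higher in TE and 6.57% lower. The SEs leave room for TE changes of their own size.

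**Figure D4:**
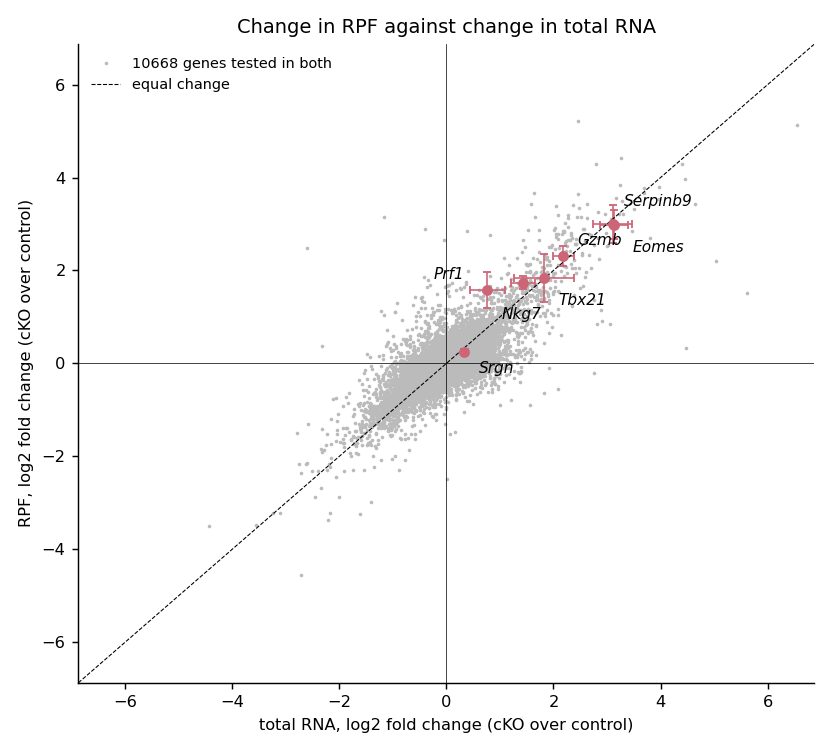
log2 fold change (cKO over control) in RPFs against that in total RNA, with the 10668 genes tested in both in grey and 7 of the 9 genes in red. Bars are SEs and the dashed line marks equal change; the 7 genes lie near the line, with Prf1 farthest above it.

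Other genes of the killing machinery both rose and fell, in shares near those of all genes. This list and those below were chosen with earlier results of these data known, so their counts are a description and no independent support. Of 25 further granule and killing genes, 19 were tested in total RNA and 6 rose, 6 fell and 7 did not pass, with a median log2 fold change of 0.02, where 26.3% of all genes were higher and 28% lower. In RPFs 4 of 18 rose and 4 fell, with a median of 0.05, where 14.1% were higher and 15.7% lower. Among the rises were Lta, a cytokine of the TNF family, with 1.93 (SE 0.11, edgeR, adjusted p = 1.267e-05) in total RNA and 1.62 (SE 0.11, adjusted p = 7.466e-05) in RPFs. Crtam, a receptor that marks CD4 T cells bound for a cytotoxic fate, rose by 1.17 (SE 0.11, adjusted p = 0.0001097) and 1.28 (SE 0.11, adjusted p = 0.0002092). Cst7, cystatin F, an inhibitor of the proteases that activate progranzymes, fell by 1.04 (SE 0.09, adjusted p = 7.151e-05) and 0.89 (SE 0.14, adjusted p = 0.002733). The granule docking and fusion factors Unc13d and Stxbp2 fell by 0.51 (SE 0.06, adjusted p = 0.0003743) and 0.54 (SE 0.07, adjusted p = 0.0003112) in total RNA, and by 0.63 (SE 0.07, adjusted p = 0.0005532) and 0.47 (SE 0.08, adjusted p = 0.003562) in RPFs. Fasl, the death ligand, had a log2 fold change of 0.04 (SE 0.16, adjusted p = 0.8457) in total RNA.

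In the same list, total RNA and RPFs went apart for a pair of genes. Ap3b1, a subunit of the adaptor that sorts proteins to granules, rose by 0.60 (SE 0.06, edgeR, adjusted p = 9.191e-05) in total RNA, with a TE change of -0.55 (SE 0.09, adjusted p = 0.001685). Stx11, the syntaxin of granule fusion, rose by 0.32 (SE 0.09, adjusted p = 0.01957) in total RNA and by 0.88 (SE 0.09, adjusted p = 0.0004056) in RPFs, with a TE change of 0.56 (SE 0.13, adjusted p = 0.01471). The TE call of Stx11 was lost when replicate 1 or 2 of either genotype was left out (0.52 to 0.54), whereas that of Ap3b1 held in every alternative.

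Most of the tested relatives of Serpinb9 rose, in a list chosen with earlier results of these data known. Of 9 clade B and A3 serpins, 4 were tested, and 3 rose and 0 fell in both total RNA and RPFs (edgeR), with medians of 2.24 and 2.54, where 26.3% and 14.1% of all genes were higher. At an unadjusted p under 0.05, 1 fell in total RNA and 0 in RPFs, and DESeq2 and the edgeR exact test gave 0 falls in both. Serpinb6b rose by 2.30 (SE 0.30, adjusted p = 0.0004228) in total RNA and 2.42 (SE 0.38, adjusted p = 0.002594) in RPFs. Serpina3g, an inhibitor of cathepsins in T cells, rose by 2.21 (SE 0.52, adjusted p = 0.008168) and 3.02 (SE 0.59, adjusted p = 0.006575). In total RNA Serpina3g measured 2.12, 2.81 and 8.03 CPM in control and 24.2, 26.4 and 9.76 CPM in cKO, so that, like the B cell markers, it was highest in replicate 3 among the controls and lowest in replicate 3 among the cKO samples, in RPFs as well. Without control replicate 3 its log2 fold changes were 3.01 and 3.77, and the part of B cells in them was not tested. Without cKO replicate 2 that of Serpinb6b in RPFs was 1.81. Serpinb6a, a relative of Serpinb6b, had -0.31 (SE 0.13, adjusted p = 0.08163) in total RNA. The remaining rise, Serpina3f, had 2.26 (SE 0.72, adjusted p = 0.02835) in total RNA, where its groups overlapped, and 2.66 (SE 0.71, adjusted p = 0.02371) in RPFs. In both kinds Serpina3f was also highest in replicate 3 among the controls and lowest in replicate 3 among the cKO samples. In the libraries of number 3, its cKO over control was 0.698 in total RNA and 1.07 in RPFs.

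Of 15 genes known as activated by T-bet or Eomes, a list also chosen with earlier results of these data known, 14 were tested. In total RNA 9 rose and 5 did not pass (26.3% of all genes were higher), and in RPFs 6 rose and 8 did not pass (14.1% of all genes), with medians of 1.22 and 0.73. None fell in edgeR (0 at an unadjusted p under 0.05, 0 in DESeq2 and 0 in the exact test) in either kind, but in total RNA 2 (Cxcr6 and Il18r1) fell without the filter on low counts and 1 (Cxcr6) without control replicate 3. Ifng, the cytokine of type 1 helper cells, measured 1.91, 1.43 and 3.07 CPM in control and 18.9, 23.8 and 18.0 CPM in cKO in total RNA, and 3.01, 2.26 and 2.33 CPM in control and 41.3, 39.4 and 29.8 CPM in cKO in RPFs. Its log2 fold changes were 3.24 (SE 0.24, adjusted p = 3.617e-05) and 3.84 (SE 0.19, adjusted p = 2.743e-05), and its TE change was 0.61 (SE 0.35, adjusted p = 0.3133). All cKO samples were far above all controls, cKO replicate 3 included. In total RNA, but not in RPFs, replicate 3 was the highest control and the lowest cKO sample.

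Not all chemokines and receptors of the same list passed the test. Ccl4 rose by 1.73 (SE 0.14, edgeR, adjusted p = 4.898e-05) and Il12rb2, a chain of the IL-12 receptor, by 1.70 (SE 0.42, adjusted p = 0.009756) in total RNA. Il12rb2 measured 1.86, 1.69 and 5.01 CPM in control and 8.49, 12.9 and 6.57 CPM in cKO, with replicate 3 again the highest control and the lowest cKO sample, and without control replicate 3 its log2 fold change was 2.38. Ccl3 rose by 1.79 (SE 0.24, adjusted p = 0.001348) and Xcl1 by 1.68 (SE 0.22, adjusted p = 0.0012) in RPFs. Cxcr3, a chemokine receptor, rose in total RNA by 1.03 (SE 0.20, adjusted p = 0.002897) but did not pass in RPFs (adjusted p = 0.2417). The chemokine Ccl5, 1 of the 9 rises in total RNA, passed the filter on low counts only through its cKO libraries, with 20 counts over the controls and 82 over the cKO samples, and did not pass the test in RPFs (adjusted p = 0.0629). The receptors Cxcr6 and Il18r1 had log2 fold changes below 0 that did not pass, -0.57 (SE 0.25, adjusted p = 0.08758) and -0.63 (SE 0.33, adjusted p = 0.1376) in total RNA and -0.55 (SE 0.27, adjusted p = 0.167) and -0.42 (SE 0.47, adjusted p = 0.5263) in RPFs. Il18rap had 0.80 (SE 0.34, adjusted p = 0.08018) in total RNA. Runx3, the factor that works with T-bet and Eomes and represses the helper fate in CD8 T cells, measured 5.09, 5.98 and 6.15 CPM in control and 13.8, 22.7 and 9.33 CPM in cKO in total RNA. It rose by 1.41 (SE 0.30, adjusted p = 0.005141) in total RNA and by 0.66 (SE 0.13, adjusted p = 0.00616) in RPFs, with a TE change of -0.74 (SE 0.35, adjusted p = 0.2177), and it too had replicate 3 as the highest control and the lowest cKO sample in both kinds.

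Of 26 regulators of the cytotoxic and helper programmes, 23 were tested, with 9 that rose and 3 that fell in total RNA (median 0.12) and 9 and 4 in RPFs (median 0.30), where 26.3% of all genes were higher and 28% lower in total RNA and 14.1% and 15.7% in RPFs. Bhlhe40, a factor of cytokine production, rose by 2.39 (SE 0.17, edgeR, adjusted p = 2.869e-05) and 2.22 (SE 0.12, adjusted p = 4.33e-05), and Zeb2, a partner of T-bet in effector cells, by 2.08 (SE 0.12, adjusted p = 1.503e-05) and 2.13 (SE 0.25, adjusted p = 0.0007146). Gata3, the factor of type 2 helper cells, rose by 2.08 (SE 0.32, adjusted p = 0.0009838) in total RNA and 1.16 (SE 0.27, adjusted p = 0.01382) in RPFs, with a TE change of -0.92 (SE 0.47, adjusted p = 0.2528) that passed the threshold with the sample number as a block. Irf8 rose by 1.85 (SE 0.32, adjusted p = 0.004149) in RPFs. Irf8 and Bhlhe40, like the B cell markers, were highest in replicate 3 among the controls and lowest in replicate 3 among the cKO samples. Zeb2, Stat5a and Stat5b had that order in total RNA alone, as did Serpinb6b and Ccl5 of the lists above. Id3, which restrains effector differentiation, fell by 0.92 (SE 0.18, adjusted p = 0.003737) and 0.68 (SE 0.16, adjusted p = 0.01486), and Bach2, a repressor of effector genes, by 0.39 (SE 0.10, adjusted p = 0.01379) and 0.40 (SE 0.10, adjusted p = 0.01689). The number of regulators that fell in RPFs was 1 without cKO replicate 1, and 2 without control replicate 2 or 3 or cKO replicate 2, in place of 4. Stat5b, a transducer of IL-2 signals, fell by 0.38 (SE 0.08, adjusted p = 0.004065) in total RNA and had -0.10 (SE 0.08, adjusted p = 0.3942) in RPFs, whereas its relative Stat5a rose by 1.83 (SE 0.16, adjusted p = 6.88e-05) in total RNA and 1.41 (SE 0.17, adjusted p = 0.000734) in RPFs.

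Zbtb7b, ThPOK, the factor that keeps CD4 T cells from the cytotoxic fate, separated total RNA from RPFs. Total RNA held 88.0, 83.8 and 83.8 CPM in control and 83.4, 85.0 and 94.9 CPM in cKO, a log2 fold change of 0.04 (SE 0.07, edgeR, adjusted p = 0.6008). RPFs held 91.3, 109 and 109 CPM in control and 73.7, 71.9 and 87.4 CPM in cKO, a fall by 0.41 (SE 0.10, adjusted p = 0.01806). All cKO samples lay below all controls in RPFs and the groups overlapped in total RNA. The TE change was -0.46 (SE 0.13, adjusted p = 0.03843). This call was lost without the filter on low counts (-0.44) and when control replicate 2 or 3 or cKO replicate 1 or 2 was left out (-0.40 to -0.47). It was the 1 fall in TE among the 23 regulators tested, with 0 rises (edgeR), where 6.57% of all genes were lower and 3.24% higher. At an unadjusted p under 0.05, 2 fell and 2 rose, and DESeq2 gave 1 fall and 0 rises. With the sample number as a block 3 regulators fell and 1 rose. In TE, 0 of 14 T-box targets and 0 of 4 serpins were past the threshold in edgeR, against 3.24% of all genes higher and 6.57% lower. At an unadjusted p under 0.05 or in DESeq2 the number was also 0.

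The genes whose pattern was most like the mean profile of the 7 members tested in both kinds were Jun (Pearson r 0.994), Icam1 (0.990), Gadd45b (0.986), Lif (0.984) and Igsf3 (0.983), over 12 libraries and among 6551 genes. The libraries share the difference between genotypes, so such values are a description. Jun, a subunit of the AP-1 factor, had log2 fold changes of 2.42 (SE 0.24) in total RNA and 2.57 (SE 0.22) in RPFs, Icam1, an adhesion receptor, 2.53 (SE 0.26) and 2.38 (SE 0.31), and Gadd45b, a stress response gene, 2.84 (SE 0.16) and 3.26 (SE 0.16). Among the members themselves, Eomes and Gzmb were the most alike pair (r 0.981, 12 libraries), and Serpinb9 and Prf1 the least (r 0.682).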

How the data were processed

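The authors trimmed adapters with Cutadapt, removed rRNA and tRNA reads with Bowtie and aligned to mm10 (GRCm38) with STAR 2.5.2b and the Gencode vM12 basic annotation. The deposited count files hold whole-number reads per gene for each of 12 libraries. The authors also deposited a table of 10126 genes with library values scaled by size (a signal unit) and columns of their own fold changes and p-values, and those columns were not used. Counts of the reverse strand matched the deposited signal within 0.1% for all 10126 genes in every library, so that strand was used. Rows that name no gene held 41.1% to 47.0% of reads in total RNA and 53.9% to 70.4% in RPFs, and stayed out of library sizes. Mitochondrial rRNA took 18.7% to 23.6% of gene counts in total RNA and 2.30% to 4.51% in RPFs.

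Genes with CPM above 1 in at least 3 of 6 libraries were tested in edgeR 4.0.16 (R 4.3.3, TMM, quasi-likelihood, Benjamini-Hochberg, threshold 0.05). TE was the interaction of genotype and kind over 12 libraries, since RiboDiff, which the study used, was not at hand. SE is the absolute log2 fold change over the square root of F. CPM uses TMM library sizes, and RPKM the exon or coding length of Gencode vM21, a later annotation than the counts. DESeq2 1.42.0, the edgeR exact test and other settings were alternatives. The code was tested on simulated counts. The members and lists were chosen with earlier results of these data known. Besides the members, the rule named up to 3 rises and 3 falls per list and kind (largest change, average log2 CPM of at least 2, groups that did not overlap), 8 set genes and the 5 genes most like the members. Mga, Fasl, Serpinb6a, Trdc, Tcrg-C4, Zbtb16, Klrd1, Klrc1, Fcer1g, Itga2, Stat5a, Cd44, Foxp3, Kit, Ccl5, Cxcr3, Cxcr6, Il18r1 and Il18rap, and Stx11 in total RNA and Gata3 in RPFs, were named after their values were seen. Fasl, Stat4, Runx3 and Hlx are each in 2 lists. A list of genes of the memory state is not reported here.

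Deviations from group means over 6674 genes correlated between the total RNA and RPF library of the same genotype and number in all 6 pairs (r from 0.120 to 0.413), so numbers pair these. Control and cKO libraries of the same number did not pair (r from -0.584 to 0.142). The count-based intervals cover counting error only, since no source describes molecular identifiers on the reads.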

Additional observations from a re-analysis of the deposited data

Results flagged for a closer look

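Of the 56 genes tested for TE in the granule, serpin, T-box target and regulator lists, 3 (5.36%) had changes in total RNA and in RPFs that differed by the interaction test (edgeR, adjusted p under 0.05), against 9.81% of all 10668 genes. This fit does not pair the total RNA and RPFs of a sample. With the sample number as a block, 1 granule gene rose and 1 fell, 1 regulator rose and 3 fell, and serpins and T-box targets gave 0. Of all 10668 genes, 426 were then higher in TE and 777 lower. Stx11 had a TE change of 0.56 (SE 0.13, adjusted p = 0.01471), being higher in RPFs by more than in total RNA, and the call was lost in 4 of the 6 fits that left out a library. Ap3b1 had a TE change of -0.55 (SE 0.09, adjusted p = 0.001685), with a log2 fold change of 0.60 in total RNA. Zbtb7b had a TE change of -0.46 (SE 0.13, adjusted p = 0.03843), being lower in RPFs, with a log2 fold change of 0.04 (SE 0.07) in total RNA, and that call was lost in 4 of those 6 fits and without the filter on low counts.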

How the results depend on the processing

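Depth limits Gzma, Gzmc and Prf1 among the members, the markers of NK, myeloid and mast cells, and cKO replicate 3 in RPFs with its few reads. The 7 members tested in total RNA and the 9 in RPFs kept the direction of their difference in the alternatives that could be fitted and left at least 2 samples of each genotype. Values moved beyond the spread between replicates in the 2 libraries of number 3 alone, where log2 ratios in total RNA were 1.60 for Gzmb, 2.66 for Eomes, 0.29 for Tbx21 and 2.12 for Serpinb9, and in RPFs 3.59 for Gzma, 1.64 for Gzmb, 2.24 for Eomes, 0.50 for Tbx21, 1.53 for Nkg7, 1.73 for Serpinb9 and -0.41 for Gzmc. Leaving out a library gave 1.38 to 2.91 for Tbx21 in total RNA and, as fitted values that are no bound, 6.69 to 9.13 for Gzma in RPFs.

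Without the filter on low counts, 214 genes were higher in TE in place of 346, 2 T-box targets fell in total RNA and 0 regulators in TE. With at least 10 counts in every library, 1 serpin rose in RPFs, since fewer were tested. Leaving out a library gave 122 to 367 genes higher and 415 to 812 lower in TE, 3 to 6 granule genes and 0 to 1 T-box targets that fell in total RNA, 1 to 4 regulators that fell in RPFs, and in TE 0 to 1 granule genes that rose, 0 to 1 T-box targets that fell and 0 to 3 regulators that fell. Some values near 0 changed sign when a library was left out: Zbtb7b in total RNA ranged from -0.0058 to 0.095, Ap3b1 in RPFs from -0.0017 to 0.0947, and Cd4 in RPFs from -0.065 to 0.0021. Cd4 in RPFs was 0.0009 with library sizes without TMM. The cause of these shifts was not tested.

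With the replicate number as a block across genotypes, which the numbers do not support, 2455 genes were higher and 2751 lower in total RNA, 1596 and 1636 in RPFs and 313 and 635 in TE. With the sample number as a block between total RNA and RPFs, TE was higher in 426 genes and lower in 777, and 1 regulator rose and 3 fell. For all genes and the granule, serpin, T-box target and regulator lists, no other count at an adjusted p under 0.05 changed by over 1.5 times. Of the NK markers in RPFs, 1 rose in edgeR and 0 in DESeq2.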
